A study of Mus musculus with 2 samples.

Results

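Of the 16406 peaks of ubiquitylated histone H2A (uH2A) that were called in Bmi1 wild-type over Bmi1 null fibroblasts, 671 overlap the 2 kb promoter around a transcription start site (TSS). In 413 of the 671, which lie at 411 genes and are described here, the wild-type tags occupied 9 or more distinct pairs of position and strand. In the 258 others they occupied 8 or fewer. The members were chosen by the wild-type tags inside the peak, each tag being placed at the middle of its fragment, and the list they come from was itself made by setting wild-type against null tags. The number of tags, the number of distinct pairs, the width of the peak and the low null level inside it were therefore all selected on and are given as a description. Among all listed peaks, 5331 reached 9 distinct pairs, which is 32.5%, and among promoter peaks the share was 61.5%.

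Chromatin of embryonic fibroblasts (MEFs) from wild-type and Bmi1 null littermates was precipitated with the uH2A antibody E6C5, and 1 library was sequenced per genotype. Both lines were C57BL/6 cells immortalized with TBX2, so both carry that transgene. The wild-type library held 6114925 tags at 4096561 distinct pairs of position and strand, and the null library held 8020248 tags at 5253063. With 1 library per genotype there is no replicate check and no test between genotypes. All intervals (95%, exact Poisson for counts, Clopper-Pearson for shares and ratios) cover counting error only, not variation between cells or libraries. PCR copies could not be told from separate molecules without UMIs, so tags are not independent. Intervals on counts that include repeats can therefore be too narrow even for counting error.

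As background, uH2A is placed on nucleosomes by Polycomb repressive complex 1, whose catalytic subunit is RING1B and whose activity is raised by BMI1. The mark is known from silenced developmental genes, among them homeobox genes and the inactive X chromosome. Many promoters of mammalian genes lie in stretches rich in CpG, the dinucleotide at which DNA is methylated.

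Promoters of 6 members with many distinct pairs are shown first. Each line holds the 250 bases before the annotated start, 5′ to 3′ along the gene, from the RefSeq promoter table of GRCm38.p6, with every CpG in capitals. They belong to 6 genes among the 12 with the most distinct pairs, whose peak spans the TSS. The tags and peaks are on mm8, an older build, and their coordinates cannot be set against those of the sequences. Syne4 (listed in the peak table as AI428936) is at chr7:30314566-30314815 on the plus strand, Mnx1 at chr5:29478471-29478720 on the minus strand and Rhpn2 at chr7:35333987-35334236 on the plus strand. Pign is at chr1:105663677-105663926 on the minus strand, Wnt16 at chr6:22287977-22288226 on the plus strand and Ivns1abp at chr1:151344236-151344485 on the plus strand.
Syne4: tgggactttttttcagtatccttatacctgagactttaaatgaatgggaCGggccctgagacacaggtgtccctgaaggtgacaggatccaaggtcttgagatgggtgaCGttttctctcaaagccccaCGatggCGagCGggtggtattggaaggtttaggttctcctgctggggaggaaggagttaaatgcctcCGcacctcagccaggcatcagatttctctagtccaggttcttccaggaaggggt
Mnx1: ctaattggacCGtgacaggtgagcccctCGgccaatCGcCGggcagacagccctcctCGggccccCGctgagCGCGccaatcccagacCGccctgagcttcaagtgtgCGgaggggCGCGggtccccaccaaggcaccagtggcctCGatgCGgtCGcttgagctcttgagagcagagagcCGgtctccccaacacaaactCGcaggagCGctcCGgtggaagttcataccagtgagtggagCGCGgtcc
Rhpn2: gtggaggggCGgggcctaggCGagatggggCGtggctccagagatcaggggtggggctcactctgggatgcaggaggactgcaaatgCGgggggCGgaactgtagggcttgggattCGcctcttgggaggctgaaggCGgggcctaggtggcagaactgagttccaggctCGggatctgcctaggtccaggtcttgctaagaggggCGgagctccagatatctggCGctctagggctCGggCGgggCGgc
Pign: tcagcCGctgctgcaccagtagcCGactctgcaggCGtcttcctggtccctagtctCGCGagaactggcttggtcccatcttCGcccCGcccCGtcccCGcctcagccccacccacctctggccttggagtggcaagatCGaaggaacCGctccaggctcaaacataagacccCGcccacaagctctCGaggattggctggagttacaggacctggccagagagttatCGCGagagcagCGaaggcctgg
Wnt16: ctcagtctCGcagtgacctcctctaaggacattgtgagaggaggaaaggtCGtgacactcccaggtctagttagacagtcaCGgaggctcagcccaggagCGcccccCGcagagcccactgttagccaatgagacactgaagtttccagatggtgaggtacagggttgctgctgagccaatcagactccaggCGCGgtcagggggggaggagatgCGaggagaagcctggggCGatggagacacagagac
Ivns1abp: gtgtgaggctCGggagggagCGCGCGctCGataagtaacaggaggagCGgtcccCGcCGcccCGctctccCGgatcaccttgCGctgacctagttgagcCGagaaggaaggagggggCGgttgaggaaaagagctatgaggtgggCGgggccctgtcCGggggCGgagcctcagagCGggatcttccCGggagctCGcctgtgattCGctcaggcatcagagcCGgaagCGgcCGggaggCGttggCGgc

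The 6 promoters differed in the number of CpG. Ivns1abp had 25 CpG in the 250 bases and Mnx1 had 21, while Wnt16 had 9 and Syne4 had 6. Over the 32851 promoters of the table, the median was 6 CpG, with quartiles of 2 and 16. The letters GGGCGG (a GC box), searched on both strands, were found 5 times in Rhpn2, 4 times in Ivns1abp, 2 times in Pign and 1 time in Mnx1, and 32.7% of all promoters of the table held at least 1. The letters CCAAT, on either strand, were found 3 times in Mnx1, 2 times in Wnt16 and 1 time each in Syne4 and Pign, against 33.8% of all promoters with a match. None of the 6 held TATAAA on either strand, which 12.4% of all promoters did. These matches only describe the windows. Over all members, a check of CpG content or motifs was void, because the table held the gene of 306 of 413 members (74.1%), under the 80% required.

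At 2 further members, both primers of a pair the study used for ChIP-qPCR lie inside this window, and their sites are in capitals here. Iars, the cytosolic isoleucyl-tRNA synthetase, is at chr13:49681880-49682129 on the plus strand, and Fgf6, a fibroblast growth factor of muscle, is at chr6:127015292-127015541 on the plus strand.
Iars: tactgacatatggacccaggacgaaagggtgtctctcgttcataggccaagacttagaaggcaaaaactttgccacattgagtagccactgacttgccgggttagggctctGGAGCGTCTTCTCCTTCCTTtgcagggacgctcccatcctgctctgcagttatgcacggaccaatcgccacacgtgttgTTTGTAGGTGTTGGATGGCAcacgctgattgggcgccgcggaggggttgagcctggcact
Fgf6: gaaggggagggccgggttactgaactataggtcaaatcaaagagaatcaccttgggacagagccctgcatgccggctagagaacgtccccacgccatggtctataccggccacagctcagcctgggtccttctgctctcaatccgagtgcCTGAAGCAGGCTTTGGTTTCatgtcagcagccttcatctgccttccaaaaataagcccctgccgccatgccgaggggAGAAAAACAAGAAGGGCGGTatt
The Iars product of 99 bp runs from base 139 to base 41 before the start. The Fgf6 product of 97 bp runs from base 100 to base 4 before it. The peak of each gene spans the TSS, with its midpoint 33.0 bp from it at Iars and 62.5 bp from it at Fgf6, both on mm8.

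The 3 members with the most distinct pairs were at AI428936, Ing1 and Cacng4. AI428936 (Syne4), which encodes a nuclear envelope protein that binds kinesin, had 52 wild-type tags at 31 distinct pairs and 10 null tags in a peak of 3617 bp (mm8 chromosome 7, 30020664 to 30024280). Ing1, a PHD-finger protein of histone deacetylase complexes, had 48 tags at 30 pairs and 9 null tags (chromosome 8, 11554452 to 11557738). Cacng4, an auxiliary subunit of calcium channels and AMPA receptors, had 44 tags at 28 pairs and 10 null tags (chromosome 11, 107607961 to 107611314). These 3 peaks lead by the number of pairs and also are among the 6 members with 9 or 10 null tags, the largest null counts, in windows that are among the 5 widest. With wild-type tags multiplied by 1.31 to bring both libraries to the same total, wild-type over null was 6.82 (3.43 to 15.1) at AI428936, 7.00 (3.39 to 16.2) at Ing1 and 5.77 (2.86 to 12.9) at Cacng4.

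Homeobox and SRY-box factors stood at ranks 4, 5 and 8 by distinct pairs. Cdx1, a caudal factor of posterior patterning and gut epithelium, had 39 tags at 27 pairs against 8 null tags. Mnx1, a homeobox factor of motor neurons, had 34 tags at 27 pairs against 7 null tags, with at most 2 tags at any one position, in a peak of 1866 bp (chromosome 5, 29807884 to 29809749). Sox4, an HMG-box factor of progenitor cells, had 34 tags at 24 pairs against 6 null tags, all within 1387 bp (chromosome 13, 28959336 to 28960722). Sox4 was the most densely covered of the 12 peaks, with 17.3 distinct pairs per kb, and Ceacam16 the least, with 5.18. The Sox4 peak lay inside the transcribed side, with its midpoint 1118.5 bp downstream of the TSS.

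The other 6 of the leading 12 cover membrane, signalling and metabolic genes. Rhpn2 had 34 tags at 25 pairs and 4 null tags. Prom2, a prominin of membrane protrusions, had 35 tags at 24 pairs and 5 null tags. Pign, an enzyme of GPI anchor synthesis, had 33 tags at 24 pairs and 4 null tags. All 3 had ratios near 10, namely 11.1 (3.98 to 43.2) at Rhpn2, 9.18 (3.58 to 30.0) at Prom2 and 10.8 (3.85 to 42.0) at Pign. Ceacam16, a secreted protein of the tectorial membrane of the inner ear, had 42 tags at 23 pairs and 4 null tags in the widest peak of all members, 4436 bp. Wnt16, a secreted Wnt ligand, had 39 tags at 23 pairs and 9 null tags, and 8 of its tags shared 1 position. Ivns1abp, a kelch-repeat protein that binds actin, had 35 tags at 23 pairs and 9 null tags. Wnt16 and Ivns1abp thus stood near the lowest ratios allowed by the 5-fold limit of the peak list, at 5.68 (2.71 to 13.3) and 5.10 (2.40 to 12.1).

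**Figure D1:**
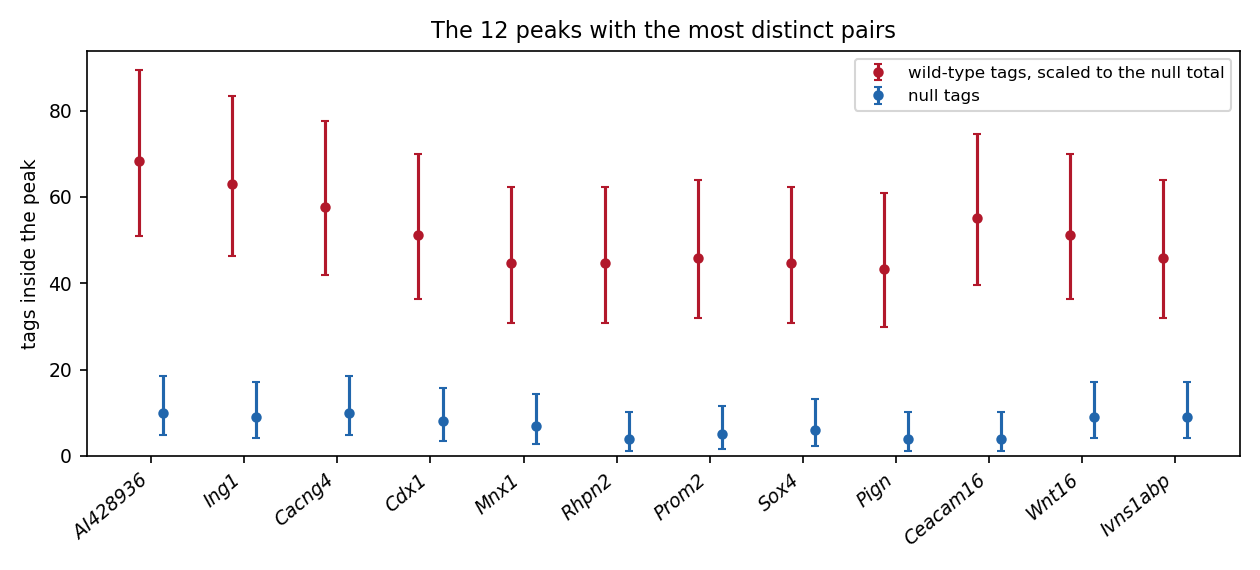
Tags inside the peak (vertical axis) at the 12 members with the most distinct pairs. Red points are wild-type tags scaled to the null total and blue points are null tags, each with an exact Poisson interval at 95%. Scaled wild-type counts range from 43.3 at Pign to 68.2 at AI428936, and null counts from 4 to 10.

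Over all 413 members, a peak held a median of 19 wild-type tags (quartiles 16 and 23, range 11 to 52) at 12 distinct pairs (quartiles 10 and 15, range 9 to 31). The null library had a median of 3 tags in the same windows (quartiles 2 and 5, range 0 to 10). Most members were thus close to the limits that chose them, and a few with over 20 pairs formed a tail. Pairs fell on both strands in 413 of 413 members, and 50.2% of all pairs were on the plus strand. In promoter peaks with fewer distinct pairs, 242 of 258 had both strands. Those peaks have as few as 1 pair, which cannot lie on both strands, while 9 or more pairs seldom share a strand. These counts are therefore bound to the rule. Repeats, meaning every further tag on an occupied pair, made up 36.3% of the wild-type tags in members and 53.2% in the promoter peaks with fewer pairs, while in the null library they were 13.5% and 16.4%. More than 50% of the tags were repeats in 21 members (5.08%) and in 131 of the 258 other promoter peaks (50.8%). The contrast between members and the other promoter peaks belongs to the rule, which counts each position and strand 1 time. The contrast between the libraries did not hold over all tags, where repeats were about as common in both. There, 6114925 wild-type tags took 4096561 pairs and 8020248 null tags took 5253063. Inside the peaks, null tags were selected to be few. The most tags at a single position and strand, 16 of 37, were at Atxn1l, an ataxin-like protein, which is named here after its values were seen.

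At the limit of the rule, 66 members had exactly 9 distinct pairs and 51 promoter peaks just missed it with 8. The 66 had a median of 15 wild-type tags, 3 null tags and a width of 899 bp. The 51 had a median of 13 wild-type tags, 2 null tags and a width of 766 bp. The peaks on either side of the limit thus overlapped in each of these measures. Just inside, Ccdc60, a coiled-coil protein, had 28 tags at 9 pairs and 7 null tags, Fgf23, the phosphate-regulating hormone of bone, had 23 tags and 3 null tags, and Ddt, a dopachrome tautomerase related to the cytokine MIF, had 22 tags and 0 null tags. Just outside, Rab17, a small GTPase of epithelial transport, Card9, an adaptor of innate immune signalling, and Nadk, the NAD kinase, each had 20 wild-type tags at 8 pairs and 3 null tags.

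**Figure D2:**
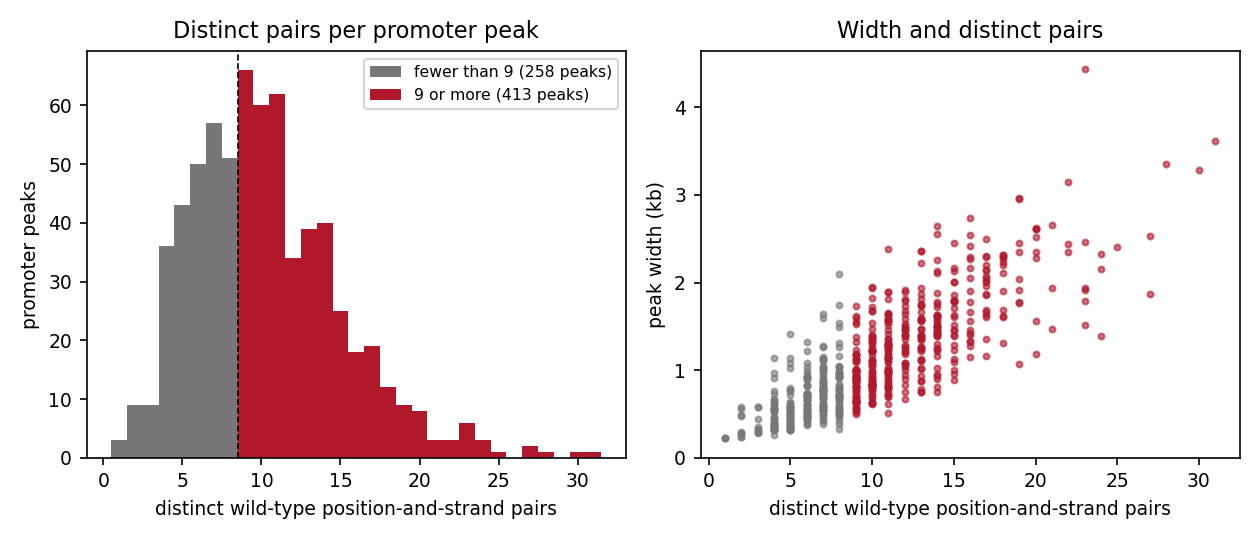
Left, the number of promoter peaks (vertical axis) by distinct wild-type pairs of position and strand, with members in red, the other promoter peaks in grey and the limit of 9 as a dashed line. Right, peak width in kb against distinct pairs, 1 point per peak, where width goes up with the number of pairs.

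Width followed the number of pairs. The median width was 1325 bp (quartiles 969 and 1720) against 606 bp (464 and 814.5) in promoter peaks with fewer pairs and 1355 bp (1057 and 1774) in peaks outside promoters with 9 or more pairs. Members with 9 to 10 pairs had a median of 929 bp, those with 11 to 13 pairs 1268 bp, those with 14 to 18 pairs 1627.5 bp and those with 19 or more 2348 bp. Width is no separate measurement here, since in every member the edges lay at a fixed distance, to within 1 bp, from the outermost wild-type tags. Per kb of peak, members had a median of 9.44 distinct pairs (quartiles 7.99 and 11.6) and the other promoter peaks 9.11 (7.21 and 11.7). So the members held more pairs over more sequence, at a similar density of pairs per kb of whole peak. Width includes the fixed distance at both edges, which weighs more in narrow peaks. Density over only the stretch that holds tags was not compared. With all tags, the medians were 14.8 wild-type tags per kb in members and 19.4 in the other promoter peaks. The best-filled stretch of 300 bp held 38.5% to 63.6% of a member's pairs (quartiles) and 62.5% to 100% of those in the other promoter peaks. As those peaks are narrower, 300 bp is a larger part of them, so this contrast is not separate from width.

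The 5 widest members were Ceacam16 (4436 bp), AI428936 (3617 bp), Cacng4 (3354 bp), Ing1 (3287 bp) and Mpped1 (3151 bp), a metallophosphoesterase expressed in brain. In AI428936, Ceacam16 and Ing1 the best 300 bp held 19.4%, 17.4% and 23.3% of the pairs. In these peaks the pairs were spread over the whole window. At the other end, Bfar, an apoptosis regulator of the endoplasmic reticulum named after its values were seen, had 11 pairs in 516 bp, the highest density of all members at 21.3 pairs per kb.

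The midpoint of a member lay a median of 420.5 bp from the TSS (interval 368.5 to 490.5, quartiles 179.5 and 887), and 332 of 413 midpoints (80.4%) lay within the 2 kb promoter. The peak spanned the TSS in 277 of 413 members (67.1%, 62.3 to 71.6) and in 98 of 258 promoter peaks with fewer pairs (38.0%, 32.0 to 44.2). A wider window covers a given base more often, so peaks of like width were compared. Among peaks of 500 to 1000 bp, 67 of 113 members (59.3%, 49.6 to 68.4) and 65 of 145 other promoter peaks (44.8%, 36.6 to 53.3) spanned the TSS. At 1000 to 1500 bp, the counts were 100 of 145 (69.0%, 60.8 to 76.4) and 11 of 26 (42.3%, 23.4 to 63.1). The difference was smaller at 500 to 1000 bp and nearly as large at 1000 to 1500 bp, where the other group has only 26 peaks. The intervals overlapped in both width classes, which is no test of the difference. Within the members, the share that spanned the TSS went from 58.7% at 9 to 10 pairs to 84.2% at 19 or more.

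The 5 members centred most closely on a TSS were at Cldn9, Ttc27, Dnajb5, Jtv1 and Chmp4c. Cldn9, a claudin of tight junctions, had its midpoint 0.5 bp from the TSS, Ttc27, a tetratricopeptide protein, 13.5 bp, Dnajb5, a heat shock protein of the DnaJ family, 15.0 bp, Jtv1 (Aimp2), a scaffold of the multi-tRNA synthetase complex, 15.0 bp, and Chmp4c, a subunit of ESCRT-III, 16.0 bp. At Ttc27, 84.6% of 13 pairs lay in the best 300 bp, against 33.3% of 18 pairs at Dnajb5. A centred peak could thus be compact or broad.

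Side was described for the 315 members (76.3%) whose strand is known, 55 from the part of the study's mm8 gene table used here and the others from the RefSeq promoter table. This is under the 80% required of a check over all members, so it stands for these 315 peaks only. Where 1354 genes had a strand in both tables, 1 differed. The midpoint lay downstream of the TSS, inside the gene, in 202 of 315 members (64.1%, 58.6 to 69.4), with a median of 197 bp downstream. In promoter peaks with fewer pairs and a known strand it was 97 of 196 (49.5%, 42.3 to 56.7), with a median of -7.5 bp. Members lay on the gene side more often than these peaks, and the intervals did not overlap. Members wholly on one side of the TSS were downstream in 61 cases and upstream in 40. Among peaks of 500 to 1000 bp the shares downstream were 55 of 82 (67.1%, 55.8 to 77.1) and 58 of 109 (53.2%, 43.4 to 62.8), with overlapping intervals, and at 1000 to 1500 bp they were 75 of 118 (63.6%, 54.2 to 72.2) and 4 of 21 (19%, 5.45 to 41.9), with intervals apart.

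**Figure D3:**
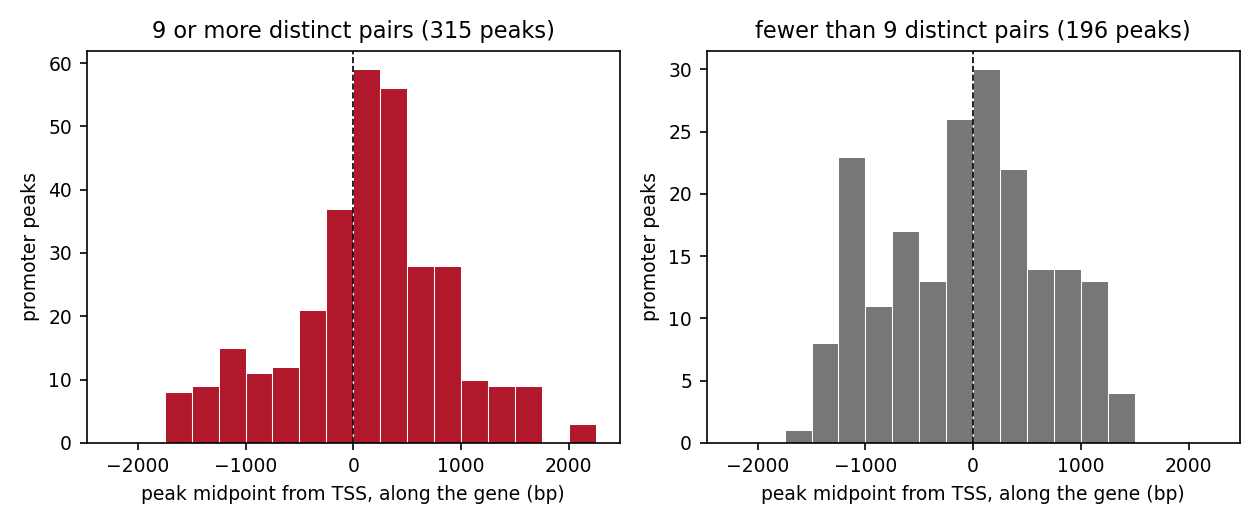
Number of promoter peaks (vertical axis) by the distance of the peak midpoint from the TSS in bp, positive inside the gene, for 315 members (left) and 196 other promoter peaks (right) with a known strand. The members pile up in the first 500 bp inside the gene, while the other peaks spread over both sides.

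Single genes show both sides. Prom2 had its midpoint 2136 bp downstream of the TSS, Cebpa, a basic leucine zipper factor of fat and myeloid cells, 1511 bp downstream and Krt75, a hair follicle keratin, 1236.5 bp downstream. Upstream, the midpoint lay 1545.5 bp from the TSS at Dcxr, an L-xylulose reductase, and 1103.5 bp from it at AI428936. None of Prom2, Cebpa, Krt75 and Dcxr spanned the TSS, whereas the broad AI428936 peak did.

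Around the TSS, averaged over the 315 members with a known strand, wild-type tags were highest in the first 200 bp of the gene. There the scaled wild-type count was 3.93 tags per promoter (3.68 to 4.19) against 0.971 null tags (0.866 to 1.09). In the 200 bp just before the TSS, the values were 2.64 (2.44 to 2.85) and 0.879 (0.779 to 0.989). The wild-type profile was lopsided, being higher on the gene side up to 1 kb than at the same distance upstream. Between 600 and 800 bp inside the gene, 2.09 scaled wild-type tags (1.92 to 2.29) stood against 0.641 null tags (0.556 to 0.736), and between 800 and 600 bp upstream, 1.65 (1.49 to 1.82) against 0.717 (0.627 to 0.817). In the null library, the first 200 bp of the gene were also above the bins 800 to 1400 bp upstream, where the count went down to 0.578 (0.497 to 0.668). The null library was the background of the peak calls, so its level near these peaks was selected to be low, and its maximum at the TSS was small, no higher than the 1.01 null tags (0.902 to 1.13) found 2200 to 2400 bp inside the gene. In promoter peaks with fewer pairs, the first 200 bp of the gene held 2.80 scaled wild-type tags (2.54 to 3.08) and 1.07 null tags (0.931 to 1.23).

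**Figure D4:**
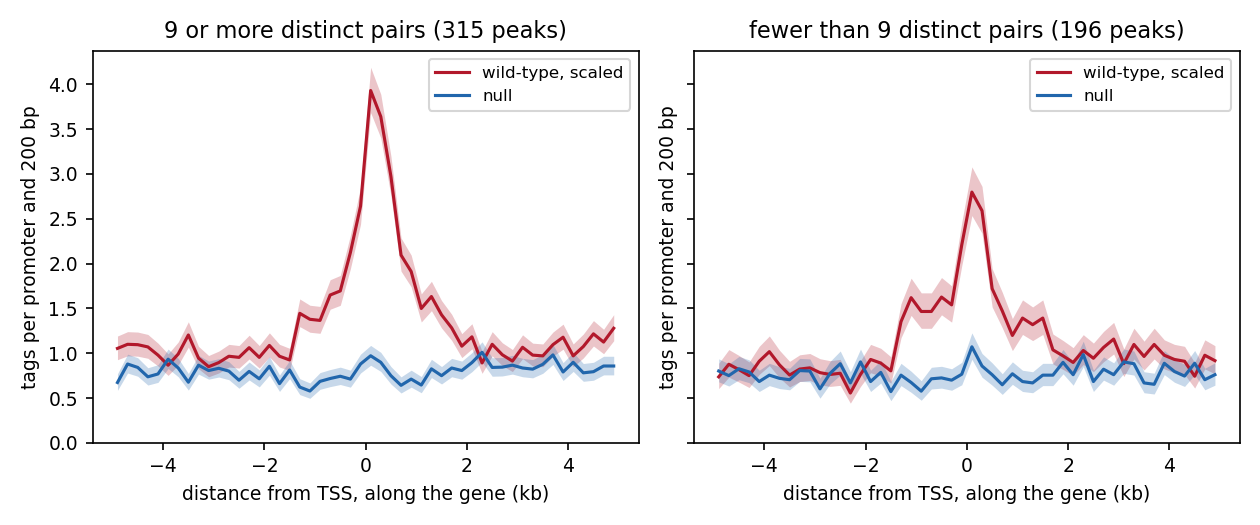
Tags per promoter in bins of 200 bp (vertical axis) against distance from the TSS in kb, positive inside the gene, for members (left) and the other promoter peaks (right) with a known strand. Red is the scaled wild-type library, blue the null library, and bands are exact Poisson intervals at 95%. The wild-type line is highest in the first 200 bp of the gene in both groups, at 3.93 and 2.80.

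Inside the members, pooled, 8457 wild-type and 1499 null tags gave a scaled ratio of 7.40 (7.00 to 7.82). The pooled ratio was 10.4 (9.38 to 11.6) in promoter peaks with fewer pairs and 8.95 (8.81 to 9.10) in peaks outside promoters with 9 or more pairs. With 1 tag kept per position and strand, and scaled by the totals of such tags, the ratios were 5.33 (5.02 to 5.67) in members, 5.69 (5.06 to 6.42) in promoter peaks with fewer pairs and 5.57 (5.47 to 5.67) in the peaks outside promoters. Members had the lowest ratio of these groups with all tags, and all 3 intervals overlapped when each position and strand was counted 1 time. By its own recount every member stood at 5-fold or more with all tags, as did 100% of the 16406 listed peaks, since the list was made so. Counting each position and strand 1 time, 235 of 413 members (56.9%, 52.0 to 61.7) stood at 5-fold or more, near the 57.8% of all listed peaks.

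At single members the ratio is known only roughly. Over the 398 members with any null tag, the median ratio was 6.56, and the upper bound of the interval was a median of 12.7 times the lower bound.

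In 15 members the null library had 0 tags. Their ratio is given by the lower bound of the Clopper-Pearson interval, which covers the counting error of both libraries. The ratio against a floor of 3 tags per peak, with the wild-type count taken as observed, is larger, is not a bound and follows in brackets. The lower bound counts repeats as separate tags, although tags are not independent, so it can be too high. These members were also picked for having 0 null tags. Esrrb, an orphan nuclear receptor of pluripotent cells, led them with 24 wild-type tags at 12 pairs. Its lower bound was 7.89 (10.5 against the floor) with all tags and 3.56 with repeats left out. Acer1, an alkaline ceramidase of skin, had 16 tags at 11 pairs and a lower bound of 5.06 with all tags (7.00 against the floor). Olfr1413, an odorant receptor, had 18 tags at 10 pairs and a lower bound of 5.77 with all tags (7.87 against the floor). Qrich2 and Dpep2, a membrane dipeptidase, each had 16 tags at 10 pairs and a lower bound of 5.06 with all tags (7.00 against the floor). At Esrrb and Olfr1413 the null library had 0 tags in the whole 2 kb promoter too. Null counts of 0 were found in 3.63% of members and 21.3% of promoter peaks with fewer pairs, which are narrower.

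Per kb, the null library held 2.58 tags inside members and 4.14 tags 1 to 5 kb outside their edges. The scaled wild-type library held 19.1 inside and 4.92 outside. The deficit of null tags inside is selected on, because the null library served as background. In the flanks, which the rule used only through the edges, 12249 wild-type and 13517 null tags gave a scaled ratio of 1.19 (1.16 to 1.22), with other listed peaks left out. It was 1.13 (1.10 to 1.17) around promoter peaks with fewer pairs and 1.23 (1.22 to 1.24) around peaks outside promoters with 9 or more pairs. The flanks of members thus held somewhat more wild-type tags than the library totals give. Their ratio was a little below that around the non-promoter peaks, with intervals that nearly meet. The alternatives for repeats and scaling were not run for the non-promoter peaks, so this difference was not tested further. By steps of 1 kb from 1 to 20 kb outside the edges, the ratio of members lay between 1.10 (1.05 to 1.16) at 16 to 17 kb and 1.24 (1.18 to 1.30) at 18 to 19 kb. In the first kb outside the edges the ratio was 0.731 (0.692 to 0.772), which is selected on, as the edges were set by the outermost wild-type tags.

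When the null tags were scaled by the tags of the same 1 Mb window in place of the library totals, the flank ratio of members was 1.01. The windows of 1 Mb that hold members had a median scaled ratio of 1.15 (quartiles 1.01 and 1.30), against 0.936 (0.842 and 1.08) over the 2533 windows with 500 or more null tags. The median was 1.11 for promoter peaks with fewer pairs and 1.19 for peaks outside promoters with 9 or more pairs, so members were not alone in this. The excess in the flanks was therefore also there across the megabase around the members, and its origin was not tested. By gene side, the flank ratio of members with a known strand was 1.19 (1.15 to 1.24) downstream of the peak and 1.20 (1.15 to 1.25) upstream. Around promoter peaks with fewer pairs it was 1.23 (1.17 to 1.30) downstream and 1.03 (0.975 to 1.09) upstream.

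**Figure D5:**
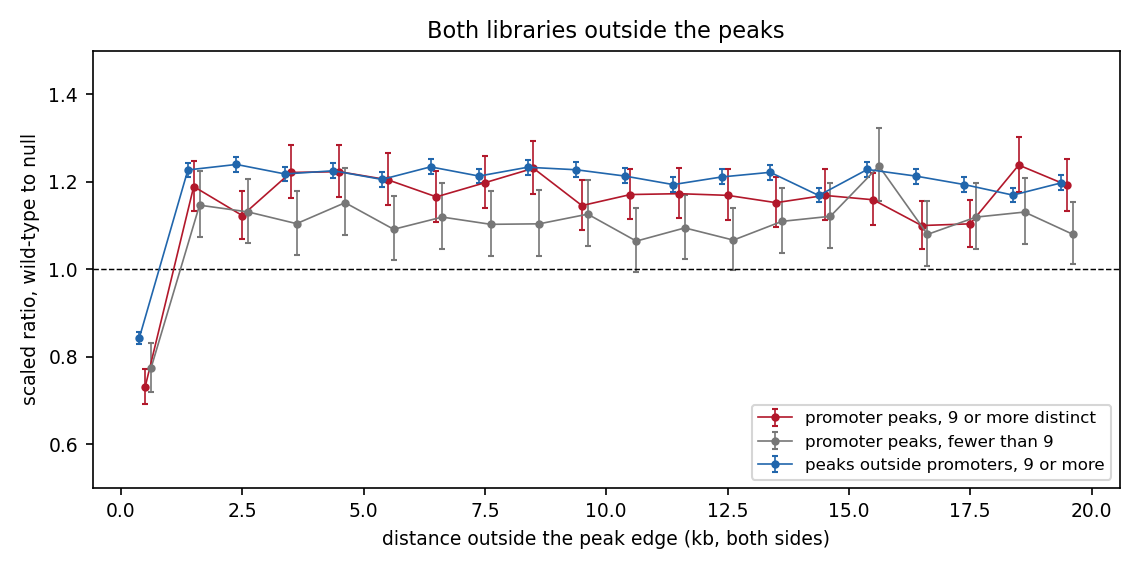
Scaled ratio of wild-type to null tags (vertical axis) in steps of 1 kb outside the peak edges, both sides together, up to 20 kb, with Clopper-Pearson intervals at 95%. Red is members, grey the other promoter peaks and blue peaks outside promoters with 9 or more distinct pairs. Beyond the first kb, the members stay between 1.10 and 1.24.

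Gene by gene, the flank interval lay above 1 at 71 of 413 members (17.2%, 13.7 to 21.2), beside 14.4% of all listed peaks, and below 1 at 20 members (4.84%, 2.98 to 7.38), beside 6.50% of all listed peaks. The following genes were singled out after their flank values were seen. Rps21, a protein of the small ribosomal subunit, had 46 wild-type and 20 null tags in its flanks, a ratio of 3.02 (1.75 to 5.38). E2f4, a repressor of the cell cycle, had 66 and 32, a ratio of 2.71 (1.75 to 4.27). Around Pign the flanks held 5 wild-type and 23 null tags, a ratio of 0.285 (0.0847 to 0.767), around Ivns1abp 17 and 46, a ratio of 0.485 (0.261 to 0.862), and around Cacng4 30 and 67, a ratio of 0.587 (0.369 to 0.916). At these 3 genes, all among the 12 with the most pairs, a strong peak stood in flanks poorer in wild-type than in null tags.

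By function, developmental transcription factors had 27 members among 35 promoter peaks (77.1%, 59.9 to 89.6), beside 61.5% of all promoter peaks, with a median of 14 distinct pairs against 12 over all members. Their widths had a median of 1585 bp, and 16 of the 27 spanned the TSS. Cdx1, Mnx1 and Sox4, described above, led the list, followed by Klf9, a Krüppel-like factor, with 32 tags at 22 pairs and 8 null tags. The homeobox genes Hoxa5 and Hoxa10, named after their values were seen, lie 35059 bp apart on chromosome 6 by their peaks and had 9 and 13 pairs. The interval of the share holds the 61.5%, so it is not told apart from promoter peaks at large.

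Among secreted signals, 17 of 24 promoter peaks were members (70.8%, 48.9 to 87.4). After Wnt16 came Tnfsf14, a TNF family ligand of T cells, with 29 tags at 18 pairs and 4 null tags, Cck, the gut and brain peptide cholecystokinin, with 24 tags at 16 pairs and 6 null tags, and Cxcl14, a chemokine of epithelia, with 20 tags at 16 pairs and 4 null tags. Fgf6 and Fgf23, fibroblast growth factors whose peaks lie 56828 bp apart on chromosome 6, were both at the limit of 9 pairs. In receptors and channels, 23 of 34 were members (67.6%, 49.5 to 82.6). Beside Cacng4, Kcna3, a voltage-gated potassium channel of T cells, had 28 tags at 20 pairs and 7 null tags and Tlr9, a sensor of unmethylated CpG DNA, had 25 tags at 18 pairs and 5 null tags. Both groups stood close to the share of all promoter peaks.

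Genes of translation, of cell cycle and DNA repair, and of solute carriers were members too. For ribosome and translation the count was 10 of 14 (71.4%, 41.9 to 91.6). The shares of members in this and the next 2 groups have intervals that hold the 61.5% of all promoter peaks. In ribosome and translation 9 of the 10 peaks spanned the TSS, beside 67.1% of all members. The larger lists had 16 of 27 (developmental factors), 9 of 23 (receptors and channels), 13 of 17 (secreted signals) and 11 of 15 (solute carriers). The lists were not tested against each other. Rps21 had 30 tags at 19 pairs, Eif3a, a subunit of initiation factor eIF3, 28 tags at 16 pairs, and the mitochondrial ribosomal proteins Mrpl4 and Mrps15 had 24 tags at 15 pairs and 20 tags at 14 pairs. Cell cycle and DNA repair had 12 of 15 (80%, 51.9 to 95.7), where after Ing1 came Tipin, a protein of the replication fork, with 27 tags at 19 pairs, E2f4 with 24 tags at 14 pairs and Mcm5, a subunit of the replicative helicase, with 23 tags at 13 pairs. Tipin had its 19 pairs within 1073 bp, a compact peak with 17.7 pairs per kb. Solute carriers had 15 of 20 (75%, 50.9 to 91.3), among them Slc35f3 with 18 pairs, Slc16a14 with 17, and Slc25a28, a mitochondrial iron carrier, and Slc22a3, an organic cation carrier, with 15 each. Beside 1.19 over all members, the flank ratio of the lists was 0.937 (0.707 to 1.24) for zinc finger proteins, 0.987 (0.854 to 1.14) for solute carriers, 1.06 (0.888 to 1.26) for ribosome and translation, 1.12 (0.993 to 1.27) for secreted signals and 1.16 (1.05 to 1.29) for receptors and channels. It was 1.23 (1.12 to 1.35) for developmental factors, 1.31 (0.940 to 1.83) for histones, 1.32 (1.14 to 1.52) for cell cycle and DNA repair, and 1.37 for both keratins (1.14 to 1.65) and olfactory and taste receptors (0.894 to 2.10).

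Keratins and histones are small groups. Of 6 promoter peaks at genes listed under a keratin name 5 were members (83.3%, 35.9 to 99.6). This interval holds the 61.5% of all promoter peaks. A further member, 1700011A15Rik, is now named Krt88 and is not in these counts. It was added after its values were seen, with 18 tags at 11 pairs and 44 wild-type and 44 null tags in its flanks. Krt75 had 23 tags at 13 pairs and 1 null tag, a ratio of 30.2 (4.90 to 1243), with 84.6% of its pairs in the best 300 bp. Krt72 and Krt71, inner root sheath keratins whose peaks lie 42827 bp apart on chromosome 15, had 12 pairs each, and Krt27, of the same sheath, had 10. The flanks of the 5 keratin members under that name held 236 wild-type and 226 null tags, unevenly by gene. The flank ratio was 2.23 (1.36 to 3.74) at Krt75, 1.76 (1.19 to 2.62) at Krt72 and 1.89 (1.22 to 2.98) at Krt71, but 1.01 (0.605 to 1.67) at Krt27 and 0.767 (0.518 to 1.12) at Krt8, which is named after its values were seen. Of 5 histone gene peaks 3 were members, a share with an interval of 14.7% to 94.7%, which also holds the 61.5%. The histone members were H2afj and Hist2h2ab, which encode H2A itself, with 13 and 11 pairs, and Hist1h1c, a linker histone, with 9. The H2A genes are the substrate family of the mark, and their peaks had 6 and 2 null tags.

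In contrast, olfactory and taste receptors had 3 members among 20 promoter peaks (15.0%, 3.21 to 37.9), which lies below the 61.5% of all promoter peaks. The 3 were Olfr74 with 11 pairs, Olfr1042 with 10 and Olfr1413 with 10. Only Olfr1413 spanned the TSS, and Olfr74 and Olfr1042 had their midpoints 1184 bp and 1629.5 bp from it. Genes listed under a zinc finger name had 4 among 11 (36.4%, 10.9 to 69.2), an interval that holds the 61.5%. Zfp12 had 19 tags at 13 pairs and 4 null tags, Zc3hav1l, related to an antiviral protein, 14 tags at 10 pairs and 0 null tags, Zfp672 21 tags at 9 pairs and 2 null tags, and Zfp518b 12 tags at 9 pairs and 3 null tags. All 4 of these peaks spanned the TSS. In the 2 groups with the lowest shares, the members had between 9 and 13 pairs.

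Of the genes with a ChIP-qPCR primer pair in the study, 8 had a member. Chmp2a, whose promoter peak the paper also tested, had none, and the paper gives no peak at Mta2, Hbb2 and Ppara. The study picked these genes itself, so the count is not set against the 61.5% of all promoter peaks. B4galnt1, the GM2 ganglioside synthase, had 28 wild-type tags at 21 pairs and 7 null tags. Cebpa had 26 tags at 16 pairs and 5 null tags, and Gfod2, an oxidoreductase domain protein, 25 tags at 16 pairs and 3 null tags. Dcxr had 21 tags at 13 pairs and 3 null tags, Iars 14 tags at 11 pairs and 2 null tags, Arpc3, a subunit of the actin-nucleating Arp2/3 complex, 19 tags at 10 pairs and 4 null tags, and Fgf6 18 tags at 9 pairs and 2 null tags. With Zfp12, given above, these genes cover the range from 9 to 21 pairs. Counting each position and strand 1 time, the interval of the ratio reached below 1 at Arpc3 alone, with a ratio of 3.21 and a lower bound of 0.925, and Iars stood at 7.05 (1.54 to 65.5).

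Pde11a, a phosphodiesterase of cyclic nucleotides, and Entpd2, an ectonucleotidase, each had 2 members. The Pde11a peaks had 17 and 9 pairs and lay 321 bp apart, and the Entpd2 peaks had 14 and 10 pairs and lay 319 bp apart. At both genes, the peaks lie next to each other at the same promoter. Apart from these, 19 further pairs of members lay within 100 kb of each other, such as Ing1 and Rab20 at 74021 bp. Rab20, a small GTPase, is named here after its values were seen. Another listed peak of any kind lay within 10 kb of 79 members (19.1%, 15.4 to 23.3), beside 22.1% of all listed peaks, 19.4% of promoter peaks with fewer pairs and 29.6% of the non-promoter peaks with 9 or more pairs.

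Members were found on every autosome and on X. Chromosome 7 had the most, 41 of its 76 promoter peaks (53.9%), beside 61.5% of all promoter peaks. Chromosome 15 had the highest share, 25 of 32 (78.1%), close to 14 of 18 (77.8%) on chromosome 18. On X, 1 of 6 promoter peaks was a member. It belongs to Fgf13, a fibroblast growth factor homologue that stays inside cells, named after its values were seen, and had 18 tags at 13 pairs and 1 null tag. With 6 promoter peaks on X, the share is known only roughly.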

How the data were processed

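The study's 2 uH2A ChIP-Seq libraries, 1 Bmi1 wild-type and 1 Bmi1 null, were analysed. According to the methods, chromatin was sonicated and treated with micrococcal nuclease, and the authors placed tags of 25 bp on mm8, keeping those with 1 best place and at most 2 mismatches. The authors deposited each mapped tag as 1 line, without normalization, and a list of peaks called with wild-type tags over null tags. In that list the authors gave the count of wild-type tags, a fold that is the ratio of the libraries relative to their totals, and a p-value. The p-value was used only for a stricter selection.

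Promoters (2 kb, TSS in the middle) and their genes came from the study's list pairing peaks with promoters. Each 5′ end was shifted along its strand to the middle of the fragment. The recount of wild-type tags equalled the deposited count in 16406 of 16406 peaks, and the recounted fold, with a null count of at least 1, came within 0.001 of the deposited fold in 99.9%. Wild-type tags were scaled by 1.31, or by 1.28 for distinct pairs. Flanks reached from 1 to 5 kb outside the edges, without other listed peaks. Start coordinates are printed 1-based. Gene names were matched to RefSeq by symbol or synonym. The interval of a median is the binomial one.

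The members and the 10 gene lists were chosen with earlier results of these data known, and the lists were drawn from the names of genes with a promoter peak as listed. The members 1700011A15Rik (Krt88), AI449175 (Zfp868) and Rag1ap1 (Slc50a1), renamed since, are in no list. Genes are named if they are among the 12 members with the most distinct pairs, the 5 widest, the 5 nearest to the TSS, the 5 with the most pairs at 0 null tags, the 5 with the most null tags or the first 4 of each list, if they are the first 3 at 9 or at 8 pairs by tags, have a primer pair, or have more than 1 member. Of the genes this rule gives, 1 is not used here. Promoter sequences are shown for 6 of the 12 whose peak spans the TSS, using the first start. Ing1 is left out there because its starts lie more than 50 bp apart. The primer windows and the classes of width and pairs were chosen after the data were seen. Alternatives changed the placement of tags, repeats, limits, flanks and scaling. Counting was tested on simulated data. Python 3.11.15 was used with numpy 2.4.6, pandas 2.3.3, scipy 1.17.1 and matplotlib 3.10.9.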

Additional observations from a re-analysis of the deposited data

How the results depend on the processing

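Of 64 alternatives, 44 stayed within the interval of the reported value, or within 1.5 times it for a count. The number of members was 413 under all 3 other placements, because peak edges follow the wild-type tags, but was 225 at 12 or more pairs and 265 at an authors' p-value of 1e-07 or less. The pooled ratio in members was 6.96 with tags at the lower end of the alignment, 6.83 with 5′ ends unshifted and 5.33 with 1 tag per position and strand. Members at 5-fold or more were 88.4%, 87.2% and 92.5% with the lower end, no shift and a shift of 71 bp, and 56.9% with 1 tag per position and strand. The flank ratio of members was 1.16 with 1 tag per position and strand, 1.01 scaled within the same 1 Mb and 1.24 with other listed peaks kept. That of promoter peaks with fewer pairs was 1.09 and 0.995 under the first 2 of these. The median width was 1263.5 bp at 8 or more pairs, 1403 bp at 10 and 1608 bp at 12, since width follows the pairs. At 12 or more pairs the median distance from the TSS was 499 bp and 72.9% spanned the TSS, and with midpoints required inside the promoter the distance was 320.0 bp. The cause was not tested where none is given. The share downstream and the null tags per member stayed within their intervals under every alternative run. The median of null tags was 3 or 4. The 5 alternatives on CpG content were not run, as that check was void. With a median of 19 wild-type and 3 null tags per member, and 1 library per genotype, depth limits every ratio at a single peak.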
